A study of Danio rerio with 3 samples.

Results

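The enveloping layer is the outermost sheet of cells of the zebrafish blastula, a flat epithelium that seals the embryo and later becomes the periderm of the skin. Its differentiation is driven by transcription factors that include Grainyhead and Krüppel-like proteins, and its cells then make keratins, tight junctions, desmosomes and surface proteins. A set of 6 genes of this layer that are neither keratins nor claudins was followed here. They were taken by symbol from the deposited table, and all 6 of the 6 names matched 1 row each among 26437 genes, of which 25386 had values. The transcription factor genes are klf17 (gene 65238), grhl3 (gene 794613) and grhl1 (gene 324942), and the genes of envelope and surface proteins are evpla (gene 373136), ppl (gene 449936) and lye (gene 567961).

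RNA was sequenced from whole, dechorionated embryos of the AB strain in 3 libraries, 1 per group. The wild-type library, called WT, came from embryos at 4.3 hours post fertilization (hpf) at the dome stage, when the yolk bulges into the cap of cells. The others came from maternal-zygotic (MZ) double mutants of the genotype nup85-/-;nup133-/-, in which neither the egg nor the embryo's own genome supplies an intact copy. The library called MZ-1k was taken at 4.3 hpf and carries the stage tag 1k in its title, and the library called MZ-dome was taken at 7 hpf with dome morphology. The products of nup85 and nup133 belong to the Y complex, a building block of nuclear pores. The labels describe no allele and give no number of embryos per library. Genotype and stage differ together between WT and MZ-1k, and genotype and age differ together between WT and MZ-dome. Age and stage differ together between MZ-1k and MZ-dome. In each comparison the factors that differ together cannot be told apart.

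Levels are fragments per kilobase of transcript scaled to library size (FPKM), which allow levels of different genes to be compared within a library. FPKM summed to 424486 in WT, 397357 in MZ-1k and 431333 in MZ-dome, and the number of reads is unknown. Of the 25386 genes with values, 2985 were listed at 0 in WT, 3999 in MZ-1k and 2288 in MZ-dome. The transcript of nup133 stood at 11.7 FPKM in WT, 0.31 in MZ-1k and 1.91 in MZ-dome, and that of nup85 at 13.2, 10.35 and 9.55. Differences are log2 ratios of FPKM + 1, which understate differences of low genes, and a gene was counted as lower or higher when the ratio reached 2-fold. Each group has 1 library and so no spread between replicates; no difference was tested, and every value describes these libraries. In whole embryos, fewer cells of the layer and less RNA in each of its cells cannot be told apart.

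The 6 genes differed from one another in how they stood across the libraries. The genes klf17 and grhl3 were high in both dome libraries and lower in MZ-1k. The genes grhl1 and lye stood at or next to 0 in MZ-1k, at a middle level in WT and at their highest level in MZ-dome. The gene evpla was close to 0 in both WT and MZ-1k and had a clear level in MZ-dome alone, and ppl was present in all 3 libraries with its highest level in MZ-dome. The FPKM of the 6 genes summed to 328 in WT, 49.1 in MZ-1k and 818 in MZ-dome.

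**Figure D1:**
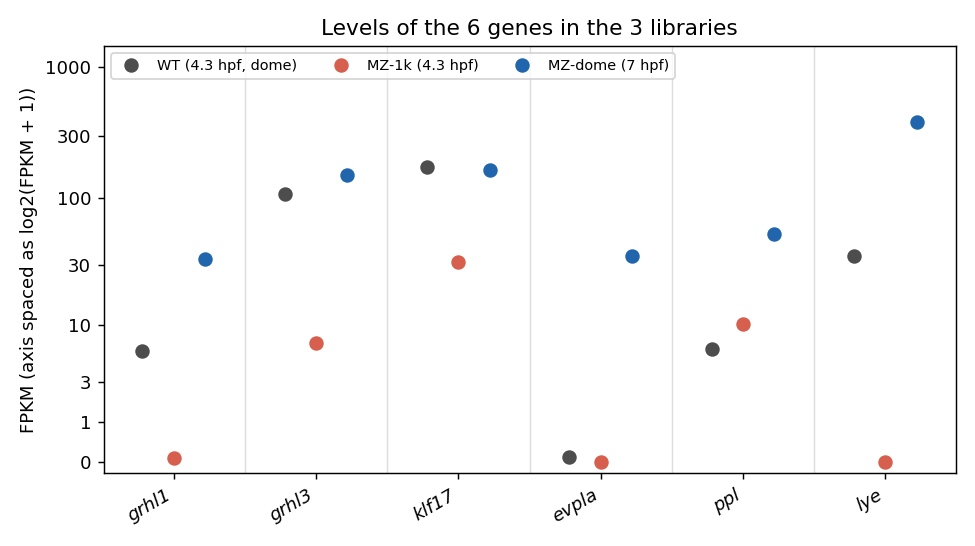
FPKM of the 6 enveloping layer genes, on an axis spaced as log2(FPKM + 1), with 1 point for each library. In MZ-1k evpla and lye are listed at 0 and grhl1 at 0.07 FPKM, while klf17, ppl and grhl3 keep 32.0, 10.1 and 6.99 FPKM.

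Among the regulators, klf17 encodes a Krüppel-like zinc finger protein that acts with its relatives Klf2a and Klf2b downstream of the pluripotency factor Pou5f3 in the early epithelium. It was the most abundant of the 6 genes in both WT and MZ-1k, at 173 FPKM in WT and 32.0 FPKM in MZ-1k, and stood at 163 FPKM in MZ-dome. Its level was thus 5.41-fold lower in MZ-1k than in WT, a log2 ratio of -2.40. In WT 98.6% of all genes with values lay below it, and in MZ-1k 85.4% still did. The dome libraries stood next to each other, with a log2 ratio of -0.09 for MZ-dome against WT. The sign of that ratio depended on scaling: it was 0.04 when the libraries were scaled by the median of ratios and -0.55 when they were scaled on proteasome genes. The proteasome genes themselves stood higher in MZ-dome than in WT, with a median log2 ratio of 0.51. Over the 14306 genes whose mean reached 1 FPKM the median was -0.05.

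The gene grhl3 encodes a Grainyhead-like factor, a family that controls epithelial barrier genes from flies to mammals. Its level was 107 FPKM in WT, 6.99 FPKM in MZ-1k and 151 FPKM in MZ-dome. MZ-1k was 15.3-fold below WT, a log2 ratio of -3.76, the 123rd lowest among the 14306 genes whose mean reached 1 FPKM. In MZ-dome grhl3 stood 1.41-fold above WT, a log2 ratio of 0.49. That ratio was 0.03 after scaling on proteasome genes, whose own median was 0.51. Between the MZ libraries grhl3 stood 21.6-fold higher at 7 hpf. The level of klf17 relative to grhl3 was 1.62-fold in WT, 4.58-fold in MZ-1k and 1.08-fold in MZ-dome, so the pair stood furthest apart in the library with the tag 1k.

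The gene grhl1 encodes another Grainyhead-like factor, which in mice is needed for desmosomes of the skin. Its level was 5.90 FPKM in WT, 0.07 FPKM in MZ-1k and 33.5 FPKM in MZ-dome. The value of 0.07 lies near the 0.01 FPKM to which the table is rounded, so no linear fold is given against it. Its log2 ratios were -2.69 for MZ-1k against WT and 2.32 for MZ-dome against WT. In linear terms it stood 5.68-fold above WT in MZ-dome, where grhl3 stood 1.41-fold above. Within a library grhl3 exceeded grhl1 by 18.2-fold in WT and by 4.50-fold in MZ-dome. The order of the 2 genes by the difference between WT and MZ-1k depended on the pseudocount, since at 0.1 FPKM the log2 ratio was -5.14 for grhl1 and -3.92 for grhl3.

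The transcripts of the envelope and surface proteins followed other patterns. The gene evpla encodes an envoplakin, a plakin that in mammals is built into the cornified envelope under the membrane of skin cells. It stood at 0.09 FPKM in WT, was listed at 0 in MZ-1k and stood at 35.3 FPKM in MZ-dome. Its log2 ratio for MZ-dome against WT was 5.06, the 23rd highest among 14306 genes. It entered that comparison only through its level in MZ-dome, since it was under 1 FPKM in both WT and MZ-1k.

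The gene ppl encodes periplakin, which pairs with envoplakin in the mammalian cornified envelope. Its level was 6.15 FPKM in WT, 10.1 FPKM in MZ-1k and 52.9 FPKM in MZ-dome. It was the only one of the 6 genes that stood higher in MZ-1k than in WT, with a log2 ratio of 0.63 that stayed under 2-fold. MZ-dome was 8.60-fold above WT (log2 ratio 2.91) and 5.26-fold above MZ-1k (log2 ratio 2.28). In MZ-dome the level of evpla was 0.667 of that of its partner ppl, while in WT evpla, at 0.09 FPKM, was too near the rounding for such a ratio.

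The gene lye encodes a small surface protein of the Ly6 group that is made in the enveloping layer and the early epidermis. Its level was 35.4 FPKM in WT and 382 FPKM in MZ-dome, and it was listed at 0 in MZ-1k. No fold is given against that 0; on the scale of FPKM + 1 its ratio was the 35th lowest of 14306. In MZ-dome it stood 10.8-fold above WT, a log2 ratio of 3.40. It was then the most abundant of the 6 genes and the 97th most abundant of all genes, with 99.6% of genes below it, where klf17 and grhl3 had stood above it in WT. Its level relative to grhl3 was 0.33-fold in WT and 2.53-fold in MZ-dome.

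Read as a set, 4 of the 6 genes (klf17, grhl3, grhl1 and lye) stood at least 2-fold lower in MZ-1k than in WT and 0 stood higher, where 9.6% of the 14306 genes stood lower and 16.6% higher. The median log2 ratio of the 6 genes was -2.54, and that of all genes was 0.16. In MZ-dome 4 of 6 (grhl1, evpla, ppl and lye) stood at least 2-fold above WT and 0 below, against 13.9% and 12.5% of all genes, with medians of 2.62 for the 6 genes and -0.05 for all genes. Between the MZ libraries all 6 stood higher at 7 hpf and 0 lower, against 13.8% and 22.2% of all genes, with medians of 4.63 and -0.21. At a threshold of 4-fold the counts of members were the same, and the shares of all genes lower and higher were 3.4% and 2.48% for MZ-1k against WT, 1.35% and 4.17% for MZ-dome against WT, and 4.68% and 7.52% between the MZ libraries. The balance of all genes between lower and higher thus differed from that at 2-fold, with more higher than lower genes between the MZ libraries and more lower than higher genes for MZ-1k against WT. The gene evpla passed the filter on the mean only through MZ-dome, where it is counted as higher in both comparisons. At 0.09 FPKM in WT it could not be counted as lower in MZ-1k. The 3 comparisons share libraries pairwise, so they are not independent of one another. The 6 genes were also chosen with earlier results of these data known. Their counts beside the shares of all genes are therefore a description.

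**Figure D2:**
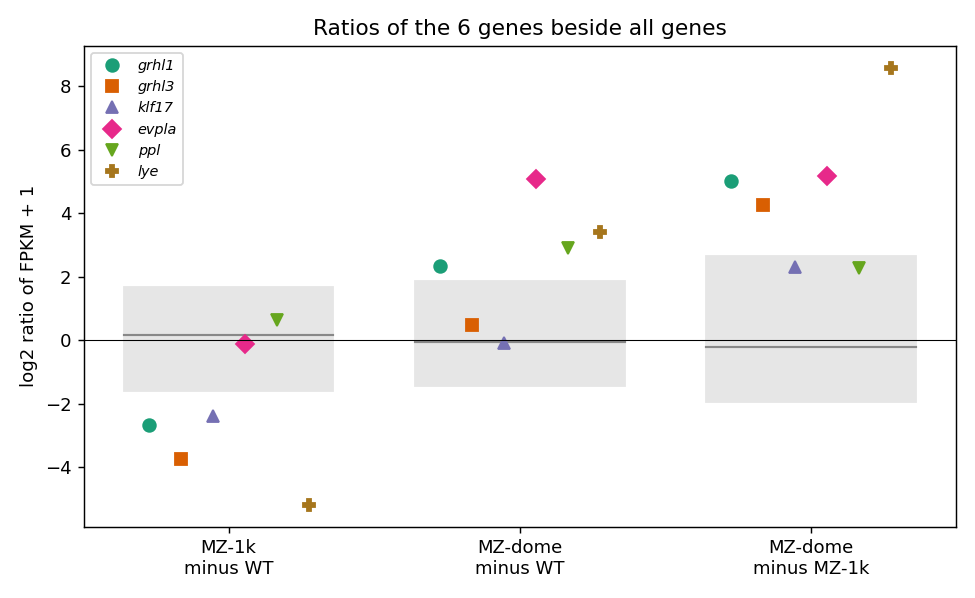
Log2 ratios of FPKM + 1 for each of the 6 genes (symbols) in the 3 comparisons, with the span from the 5th to the 95th percentile of 14306 genes (grey band) and their median (grey line). The genes grhl1, grhl3, klf17 and lye lie under the band for MZ-1k minus WT, and klf17 and grhl3 lie inside it for MZ-dome minus WT, where the other 4 lie above it. For MZ-dome minus MZ-1k klf17 and ppl, at 2.31 and 2.28, lie inside the band and the other 4 above it.

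The order of levels among the 6 genes also differed. In WT it ran klf17, grhl3, lye, ppl, grhl1, evpla, and in MZ-1k klf17, ppl, grhl3, grhl1, followed by evpla and lye at 0. In MZ-dome it ran lye, klf17, grhl3, ppl, evpla, grhl1. The spread over samples is unknown, so neighbours such as klf17 and grhl3 (163 and 151 FPKM) or evpla and grhl1 (35.3 and 33.5 FPKM) in MZ-dome cannot be ranked against each other.

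Relatives of the regulators were set beside them. Of 7 genes of the Grainyhead family with values, 2 stood at least 2-fold lower in MZ-1k than in WT (grhl1 and grhl3) and 0 higher. The abundant tfcp2, of the CP2 branch of the family, stood at 83.3, 88.5 and 80.6 FPKM in WT, MZ-1k and MZ-dome, the order in which values in all 3 libraries are given from here on. Its branch relative ubp1 stood at 8.11, 15.4 and 5.75 FPKM. The remaining Grainyhead-like gene that reached 1 FPKM, grhl2a, stood at 2.09, 1.89 and 12.4 FPKM, so it was close in WT and MZ-1k and higher in MZ-dome. Against WT 2 of the 7 stood higher in MZ-dome, grhl1 and grhl2a, and 0 lower. Between the MZ libraries 3 stood higher at 7 hpf and 1 lower, which was ubp1.

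Of 22 Krüppel-like genes with values, 3 stood lower in MZ-1k than in WT, and these were klf17, klf2a and klf2b. The gene klf2a stood at 34.9, 5.55 and 21.2 FPKM and klf2b at 10.4, 2.78 and 42.4 FPKM. Another 5 of the 22 stood higher in MZ-1k, and the abundant klf8 stood at 38.6, 42.9 and 51.1 FPKM. Against WT 6 stood higher in MZ-dome and 0 lower, with klf5a at 0.25, 0.93 and 6.22 FPKM. Between the MZ libraries 10 stood higher at 7 hpf and 4 lower. Over all genes with values, 5.9% stood at least 2-fold lower and 9.81% higher in MZ-1k than in WT. The shares were 7.4% lower and 8.77% higher for MZ-dome against WT, and 12.7% lower and 9.23% higher for MZ-dome against MZ-1k. These shares are the background for all list counts.

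Genes known to act above or beside the 6 genes formed a list of 16. Of these 7 stood lower and 1 higher in MZ-1k than in WT. The 7 include klf2a and klf2b, already counted among the Krüppel-like genes, and the 1 higher was tp63. Against WT 8 stood higher and 0 lower in MZ-dome, and between the MZ libraries 11 stood higher and 0 lower. The pluripotency factor gene pou5f3 stood at 520, 533 and 1096 FPKM, nearly level between WT and MZ-1k. The genes chuk and tfap2a were singled out after their values were seen. The kinase gene chuk, needed for differentiation of the layer, stood at 76.0, 74.1 and 44.9 FPKM.

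Other regulators of that list were far lower in MZ-1k. The GATA factor genes gata3 and gata2a stood at 40.9 and 23.2 FPKM in WT, 0.63 and 0.66 FPKM in MZ-1k and 79.0 and 53.1 FPKM in MZ-dome. The AP-2 factor gene tfap2a, of the surface ectoderm, stood at 29.4, 1.86 and 34.2 FPKM, and its relative tfap2c at 3.74, 0.51 and 22.8 FPKM. The cofactor gene vgll4l stood at 182, 0.36 and 162 FPKM, alike in the dome libraries as klf17 was.

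**Figure D3:**
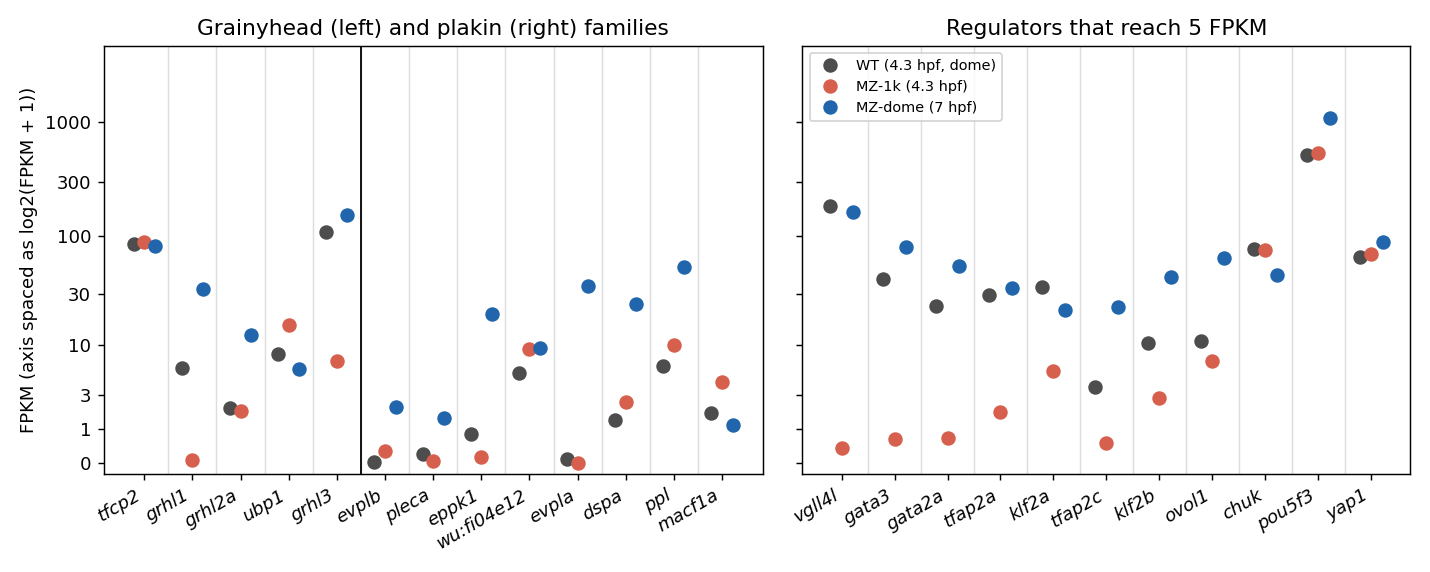
FPKM in the 3 libraries, on an axis spaced as log2(FPKM + 1), of Grainyhead family genes and plakin genes that reach 1 FPKM (left panel, split by the black line) and of listed regulators that reach 5 FPKM (right panel, ordered by the ratio of MZ-1k to WT). The gene shown as wu:fi04e12 is dspb in the reference table and ovol1 is ovol1a; chuk, pou5f3 and yap1 lie on the right, where WT and MZ-1k are closest.

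The plakin family links keratin filaments to desmosomes and to the membrane. Of 11 genes with values, 0 were at least 2-fold apart between WT and MZ-1k on the scale of FPKM + 1, a count near the share over all genes, and several were too low to pass on that scale. Against WT, 6 stood higher in MZ-dome and 0 lower, and between the MZ libraries 6 stood higher and 1 lower. The higher genes besides evpla and ppl were eppk1 at 0.83, 0.13 and 19.6 FPKM, the desmoplakin gene dspa at 1.39, 2.47 and 24.3 FPKM, evplb at 0.03, 0.28 and 2.11 FPKM, and pleca at 0.22, 0.06 and 1.53 FPKM. The second desmoplakin gene, dspb, stood at 5.25, 9.19 and 9.37 FPKM. The spectraplakin gene macf1a, which binds the cytoskeleton more widely, stood at 1.80, 4.17 and 1.19 FPKM. In MZ-dome ppl and evpla were thus the most abundant plakin genes, followed by dspa and eppk1.

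In the Ly6 list 7 of 9 names matched and 6 had values, and among these 6 lye had no relative of a similar level. Of 6 genes with values, the only other one to reach 1 FPKM was lypd6b, at 0.41, 2.23 and 0.64 FPKM. Counts for the list were 1 lower and 1 higher between WT and MZ-1k, and 1 higher and 0 lower in each of the other comparisons, where the higher gene was lye.

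Keratin and junction genes of the same layer were read beside the 6 genes. Of 19 keratin genes with values, 6 stood lower in MZ-1k than in WT and 0 higher, and 11 stood higher in MZ-dome than in either of the others and 0 lower. The mean reached 1 FPKM in 11 of the 19, 5 of them while under 1 FPKM in both WT and MZ-1k. Their summed level was 148 FPKM in WT, 6.13 FPKM in MZ-1k and 2969 FPKM in MZ-dome. The gene krt8, the most abundant in both MZ libraries, stood at 36.0, 4.31 and 969 FPKM, and krt18, the most abundant in WT, at 76.8, 0.16 and 759 FPKM. The gene krt5 stood at 2.92, 0.07 and 279 FPKM. The markers krt4 and krt92, 2 of those planned for the layer, stood at 22.6 and 2.28 FPKM in WT and at 563 and 108 FPKM in MZ-dome. The keratin genes krt4, krt8 and krt18 were therefore present in WT beside grhl3 and klf17, in the library where evpla was near 0. The 5 keratin genes under 1 FPKM in both WT and MZ-1k passed the filter on the mean only through MZ-dome, as evpla did. Their low levels in WT and MZ-1k follow from how they were picked. Among them the marker cyt1 stood at 0.21, 0.04 and 55.5 FPKM. In MZ-1k krt4 stood at 0.09 FPKM and krt92 was listed at 0, while the marker krt8 kept 4.31 FPKM and klf17 stood at 32.0 FPKM.

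Of 30 junction and adhesion genes, 4 stood lower and 2 higher in MZ-1k than in WT, 1 lower and 7 higher in MZ-dome than in WT, and 1 lower and 6 higher between the MZ libraries. The claudin genes cldne and cldnb stood at 22.1 and 8.0 FPKM in WT, 0.46 and 0.05 FPKM in MZ-1k and 254 and 56.7 FPKM in MZ-dome. A further claudin gene, cldnf, stood at 1.24 FPKM in WT, was listed at 0 in MZ-1k and stood at 21.7 FPKM in MZ-dome. The desmosomal plakophilin gene pkp3a, at 0.21, 0.37 and 23.2 FPKM, was low in both WT and MZ-1k as evpla was. The abundant genes differed less. The gene epcam, of a cell adhesion molecule, stood at 657, 322 and 484 FPKM. With a log2 ratio of -1.02 it was still 1 of the 4 lower in MZ-1k than in WT. The gene cldn7b stood at 210, 188 and 244 FPKM.

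Of 23 other envelope and surface genes with values, 3 stood lower and 1 higher in MZ-1k than in WT, 1 lower and 8 higher in MZ-dome than in WT, and 0 lower and 8 higher between the MZ libraries. The calpain gene capn9 stood at 0.86, 0.04 and 54.5 FPKM, the ceramidase gene acer1 at 0.60, 1.52 and 72.4 FPKM, and the annexin gene anxa1a at 4.24, 0.27 and 52.8 FPKM. Its relative anxa1b stood at 0.33, 0.16 and 7.74 FPKM. The fatty acid elongase gene elovl7a, 1 of the abundant members, stood at 19.1, 36.0 and 37.8 FPKM. The 6 transglutaminase genes of the list, a family that in mammals crosslinks envoplakin and periplakin, were singled out after their values were seen. The only abundant one, tgm2b, stood at 29.6, 7.93 and 6.14 FPKM, and it was the gene that stood lower in MZ-dome than in WT. The other 5 stayed low throughout, the highest value being 1.23 FPKM for tgm5l in MZ-dome.

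**Figure D4:**
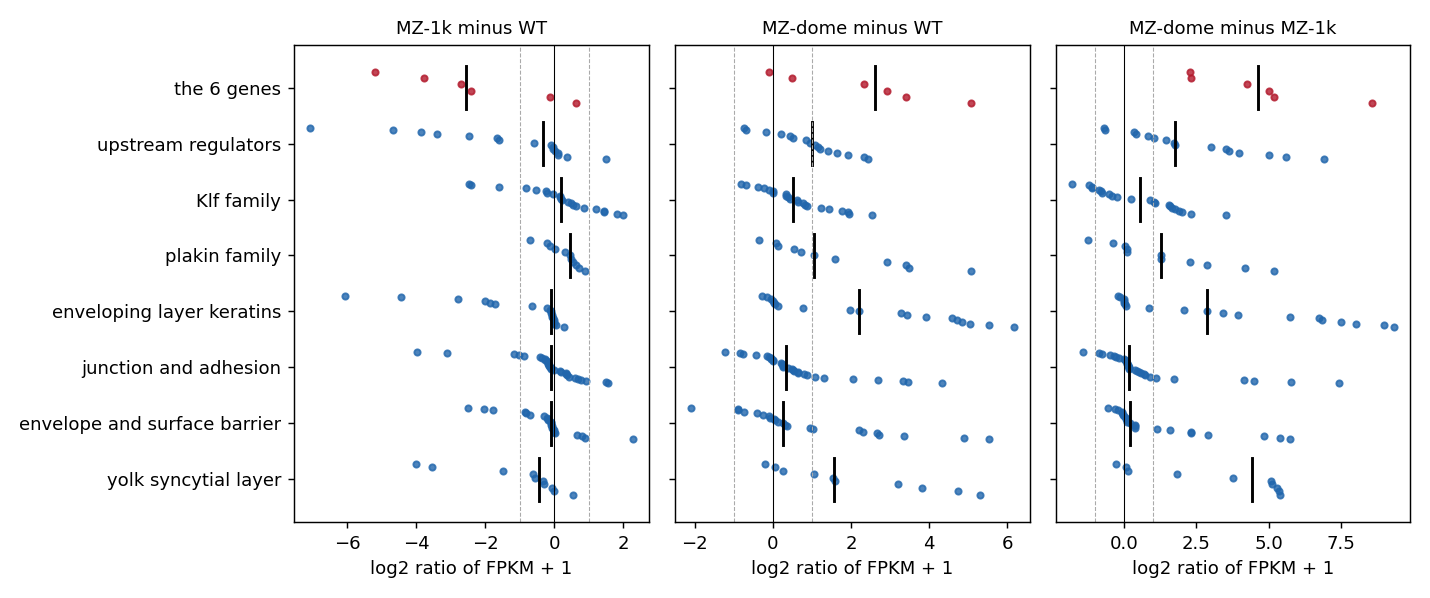
Log2 ratios of FPKM + 1 of every gene with values in the lists (points, sorted by value within a list; black bars, list medians; dashed lines, 2-fold) for the 3 comparisons. The 6 genes (red) have medians of -2.54, 2.62 and 4.63, and keratin medians are -0.10, 2.21 and 2.86 over all 19 genes, many of which are near 0 FPKM throughout. All 6 genes reach a mean of 1 FPKM. Over the 11 keratin genes that also do, the medians are -1.71, 4.58 and 6.76, the last 2 above those of the 6 genes. Of these 11, 5 pass only through MZ-dome.

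Markers of the yolk syncytial layer stood lower and higher in the same libraries. In the list for this layer, the nuclei-bearing surface of the yolk, 3 of 10 genes stood lower in MZ-1k than in WT and 0 higher, and 7 stood higher in MZ-dome than in either of the others and 0 lower. Its summed level was 92.6 FPKM in WT, 5.01 FPKM in MZ-1k and 347 FPKM in MZ-dome. In MZ-1k 4 of the 10 were listed at 0, where 3999 of all 25386 genes with values were. The homeobox genes mxtx1 and mxtx2 stood at 11.1 and 77.2 FPKM in WT, 0.03 and 3.86 FPKM in MZ-1k and 35.1 and 162 FPKM in MZ-dome. The nuclear receptor gene hnf4a and the lipid transfer gene mtp stood at 1.81 and 0.06 FPKM in WT, so mtp was near 0 there too. Both were listed at 0 in MZ-1k and stood at 38.6 and 41.2 FPKM in MZ-dome, and gata6 stood at 1.03, 0.33 and 53.3 FPKM. The part of cell composition in the levels of the 6 genes was not tested. Ionocyte and mucous cell markers of the later epidermis were near 0, with a summed level of 1.26 FPKM in WT, 0.35 FPKM in MZ-1k and 0.67 FPKM in MZ-dome. At such levels none of the 7 genes could reach 2-fold on the scale of FPKM + 1, so the count of 0 in every comparison tells nothing. In that list foxi3b stood at 0.09 FPKM in WT and was listed at 0 in both MZ libraries, and the highest value was 0.47 FPKM, of slc4a4b in WT. The basal epidermis gene tp63 stood at 0.86, 4.25 and 2.33 FPKM.

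Genes with the most similar pattern were sought among 7614 genes of at least 10 FPKM in some library, by the root mean square difference of log2(FPKM + 1) after centring on the mean over the 3 libraries. With 3 libraries a pattern has few degrees of freedom, so likeness is a description. The nearest to klf17 were snai1b, znf1136 and plekhj1 (differences of 0.107 to 0.162), and the nearest to grhl3 were lratb, igf2a and aplnrb (0.107 to 0.143). The nearest to grhl1 were rhoab, mcm6 and znf1041 (0.0741 to 0.115). The nearest to evpla were b3gnt5a, hsp70.1 and ponzr5 (0.0402 to 0.0749). Of these hsp70.1 stood at 3.15, 3.22 and 147 FPKM, so it was present in WT and MZ-1k, where evpla was near 0. The scale of FPKM + 1 understates such differences, as also in MZ-1k for rhoab, at 1.6 FPKM, beside grhl1, near 0. The gene b3gnt5a stood at 0.05 FPKM in WT, was listed at 0 in MZ-1k and stood at 32.9 FPKM in MZ-dome. The nearest to ppl were lyrm2, kif20bb and slc7a3a (0.0449 to 0.153), and the nearest to lye were polr3gla, stm and asb11 (0.0515 to 0.214). The gene polr3gla stood at 48.2, 0.24 and 501 FPKM, close to lye in all 3 libraries. Among the 6 genes themselves the most similar pair was grhl1 and grhl3, with a difference of 0.75, near the 0.81 of grhl3 and klf17. The least similar was ppl and lye, with 2.86. Which pair was closest depended on the pseudocount. At 0.1 FPKM the log2 ratio of MZ-dome to MZ-1k was 7.63 for grhl1, 4.41 for grhl3 and 2.34 for klf17. In that ratio grhl3 lay nearer to klf17 than to grhl1. The genes named for each member were picked as the nearest of 7614, so their differences cannot be set against those within the 6.

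Genes next to the 6 along the chromosome were read as a description, from the gene order of the RefSeq assembly GRCz12tu. The nearest gene on each side whose mean reached 1 FPKM was taken. Of these 12 genes 1 stood at least 2-fold lower in MZ-1k than in WT, srp68 beside evpla, at 96.1 FPKM in WT and 45.5 FPKM in MZ-1k. Another, cnksr1 beside grhl3, stood at least 2-fold higher, at 8.16, 48.5 and 8.12 FPKM, the opposite of grhl3. The gene ywhaqb beside grhl1 stood at 8.88, 10.1 and 60.4 FPKM, higher in MZ-dome as grhl1 was. The neighbours of klf17, rnf220a and b4galt2, stood at 11.3, 9.92 and 16.7 FPKM and at 3.57, 3.48 and 3.05 FPKM, without the low value that klf17 had in MZ-1k. The neighbours of lye, vps52 and clic1, stood at 2.66, 5.78 and 4.77 FPKM and at 1.82, 3.19 and 0.60 FPKM, so both were present in the library where lye was listed at 0. Beside ppl, glyr1 stood at 62.2, 37.1 and 115 FPKM, and si:dkeyp-72e1.9 at 0.28, 0.82 and 2.87 FPKM, the latter lowest in WT and highest in MZ-dome as ppl was. The remaining neighbours were klf11b beside grhl1 at 6.84, 4.39 and 8.94 FPKM, nipal3 beside grhl3 at 4.43, 7.29 and 2.72 FPKM, and ten1 beside evpla at 2.43, 2.77 and 2.27 FPKM. Of the 12 neighbours, 2 stood at least 2-fold higher and 0 lower in MZ-dome than in WT, and 3 stood higher and 3 lower between the MZ libraries. Over all genes whose mean reached 1 FPKM, 9.6% stood lower and 16.6% higher in MZ-1k than in WT. The shares were 12.5% and 13.9% for MZ-dome against WT, and 22.2% and 13.8% between the MZ libraries. The 12 neighbours are too few to set apart from these shares.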

How the data were processed

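Per the labels' protocols, total RNA of whole embryos was purified on columns. The build GRCz11 and the tools RSEM 1.2.8, Bowtie2 2.2.5 and Trimmomatic 0.36 are named in the submitters' processing notes, with no role given. The deposited table holds FPKM made by the authors, 1 column per library, per the file headers. Its values are given to 0.01 FPKM. The labels do not state strand or poly(A) selection, so reads of overlapping genes may not be separable. Depth cannot be read from FPKM.

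The 6 genes and 11 wider lists (195 names, 188 matched to 1 row, 10 through the RefSeq gene table of GRCz12tu) were chosen with earlier results of these data known. The table lacks values for 1051 genes. Log2((a + 1)/(b + 1)) was computed for the 3 pairs of libraries, and the background was counted over 14306 genes whose mean reached 1 FPKM or over all 25386 with values. Lists were counted over all genes with values; 1 gene is not reported here. Besides the lists named in the text, 35 proteasome genes served for scaling: 0, 0 and 0 stood at least 2-fold lower and 1, 10 and 2 higher in the comparisons of MZ-1k with WT, MZ-dome with WT and MZ-dome with MZ-1k.

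Named genes were the 6 members; Grainyhead, plakin and Ly6 genes of at least 1 FPKM in a library; from each other list up to 4 genes with the largest ratio and 2 of the most abundant; the 3 genes of most similar pattern for each member; nearest neighbours in the gene order; and the marker genes krt92, cyt1 and tp63. The gene ly75 was taken out of the Ly6 list after its values were seen, because its product is a lectin receptor. Alternatives were pseudocounts of 0.1 and 5 FPKM, a threshold of 4-fold, no filter or a filter at a mean of 5 FPKM, and 3 scalings: to the same total, by the median ratio over genes above 1 FPKM in every library, and to a median ratio of 1 over proteasome genes. The ratio and count steps were also run on simulated libraries with an assumed number of reads per FPKM. Planted differences lay only in genes well above 0, so that run does not bear on differences of genes near 0. Values were computed with pandas 2.3.3 and numpy 2.4.6 in Python 3.11.15, and figures were drawn with matplotlib 3.10.9.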

Additional observations from a re-analysis of the deposited data

How the results depend on the processing

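Counts of the 6 genes at least 2-fold lower or higher were the same in every comparison with pseudocounts of 0.1 and 5 FPKM, after scaling on proteasome genes, by the median of ratios and to equal sums, and at 4-fold. Of 90 single log2 ratios of the 6 genes under the pseudocounts and scalings, 77 stayed within 1.5-fold of the reported value and 13 moved further, all 13 with another pseudocount and in grhl1, evpla or lye; 0 of those past 2-fold turned direction. Under scaling, the median over the 14306 genes whose mean reached 1 FPKM also moved. It went from 0.16 to -0.02 for MZ-1k against WT (median of ratios). With proteasome genes it went from -0.05 to -0.45 for MZ-dome against WT and from -0.21 to -0.67 for MZ-dome against MZ-1k. In these settings the medians of the 6 genes were -2.66, 2.18 and 4.19.

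The 142 genes of the wider lists together, without the 6 and the proteasome genes, had 23 lower and 10 higher for MZ-1k against WT, 2 lower and 51 higher for MZ-dome against WT, and 7 lower and 55 higher between the MZ libraries. With a pseudocount of 0.1 FPKM these became 38 lower and 24 higher in the first, 9 lower in the second and 16 lower in the third. With 5 FPKM they became 14 lower and 4 higher in the first and 1 lower in the third. Scaling on proteasome genes gave 8 lower in the second and 14 lower in the third, and the median of ratios gave 4 lower in the third. At 4-fold there were 15 lower and 1 higher in the first, 1 lower and 32 higher in the second and 0 lower in the third. A filter at a mean of 5 FPKM left 6 higher in the first, 30 higher in the second and 33 higher in the third, since fewer genes were counted. The cause of the other shifts was not tested. Background counts were taken over the 14306 genes whose mean reached 1 FPKM, a narrower base than that of the lists. With 5 FPKM, lower and higher genes were 620 and 1008, 788 and 950, and 1823 and 1193 in the 3 comparisons. As reported they were 1373 and 2378, 1793 and 1986, and 3177 and 1980. With 0.1 FPKM the counts over these 14306 genes rose, to 1867 and 3018, 2346 and 2577, and 3814 and 2210. Scaling on proteasome genes gave 3528 lower and 1260 higher in the second and 5141 lower in the third.

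No paired analysis was possible because each group has 1 library and the labels give no replicate numbers, and leaving out a replicate does not apply. The planned search for promoter motifs and the description of protein features were not run, since no sequences were used here. The number of reads behind a value is unknown, which limits every level near 0.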
